A study of Homo sapiens with 8 samples.

Results

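A set of 10 circadian clock and PAR bZIP genes was followed in HuH7 cells, a human line derived from a hepatoma, after oxygen-glucose deprivation and reoxygenation (OGD/R). The genes, NFIL3, DBP, TEF, HLF, BHLHE40, NR1D1, NR1D2, PER1, PER2 and CLOCK, were found by symbol among the 15745 genes with a usable symbol in the count table, and all 10 were among the 12910 genes that passed the filter on low counts. All cells were labelled wildtype and were kept for 6 h at 1% oxygen in medium without glucose and then for 6 h in normal oxygen. During reoxygenation 4 samples received the solvent DMSO (I/R+DMSO) and 4 received 20 µM ginsenoside Rk2 (I/R+Rk2), a saponin of ginseng, and RNA from each sample was sequenced. The members were chosen for how they differed between these same groups, so their values are given below as a description and without p-values.

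The circadian clock is a feedback loop of transcription that runs in most cells, liver cells included. CLOCK and its partner ARNTL (BMAL1) bind E-box sequences and switch on the PER and CRY genes, whose proteins in turn repress CLOCK and ARNTL. A further loop joins the nuclear receptors NR1D1 and NR1D2 (REV-ERBα and REV-ERBβ), which repress genes with RORE elements, to the ROR receptors, which activate them. DBP, TEF and HLF are activators of the PAR bZIP family that bind D-box sequences, and NFIL3 (E4BP4) binds the same D-box as a repressor. In liver these factors are known as regulators of genes for drug and bile acid metabolism.

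The promoters bear on these roles because clock factors act through short elements near the gene starts. RefSeq (GRCh38.p14) gave 15 promoter windows for the 10 genes, each running from 250 bases before a RefSeq gene start to 50 after it. Both strands were searched for the D-box (TTATGTAA or TTACGTAA), the E-box (CACGTG), the core of the RORE (TAGGTCA) and the cAMP response element (CRE, TGACGTCA). None of these motifs contains another. Of all 35116 windows, 1.01% held a D-box, 7.26% an E-box, 1.85% a RORE core and 1.85% a CRE. Among the 15 windows of the members, 2 held a D-box, 5 an E-box, 1 a RORE core and 1 a CRE. The matches are descriptions of letters and do not show binding.

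The 250 bases before the start are printed for the repressor NFIL3, for BHLHE40 and NR1D2, which like NFIL3 were higher with Rk2, and for TEF, the PAR bZIP activator with the highest mean CPM over the 8 libraries. Other members were higher too, among them CLOCK, whose windows held no match and are not printed. They run 5′ to 3′ on the gene's strand, and capitals mark the matches.
NFIL3, chr9:91423833-91424082, minus strand: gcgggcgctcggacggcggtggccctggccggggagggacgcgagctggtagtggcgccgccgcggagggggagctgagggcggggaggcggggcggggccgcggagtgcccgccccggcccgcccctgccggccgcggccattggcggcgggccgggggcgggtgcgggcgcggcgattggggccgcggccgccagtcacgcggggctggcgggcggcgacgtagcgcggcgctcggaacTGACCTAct
BHLHE40, chr3:4979187-4979436, plus strand: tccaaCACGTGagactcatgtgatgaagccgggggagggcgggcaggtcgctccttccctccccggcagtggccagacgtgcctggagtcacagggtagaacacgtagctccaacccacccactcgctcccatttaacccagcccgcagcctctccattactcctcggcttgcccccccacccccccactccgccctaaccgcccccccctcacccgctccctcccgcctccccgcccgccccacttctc
NR1D2, chr3:23945871-23946120, plus strand: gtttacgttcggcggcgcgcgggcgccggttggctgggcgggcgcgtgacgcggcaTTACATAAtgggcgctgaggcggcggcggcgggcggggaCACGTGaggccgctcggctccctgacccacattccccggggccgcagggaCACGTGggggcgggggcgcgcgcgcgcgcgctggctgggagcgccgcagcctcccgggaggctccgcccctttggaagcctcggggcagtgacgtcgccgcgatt
TEF, chr22:41367205-41367454, plus strand: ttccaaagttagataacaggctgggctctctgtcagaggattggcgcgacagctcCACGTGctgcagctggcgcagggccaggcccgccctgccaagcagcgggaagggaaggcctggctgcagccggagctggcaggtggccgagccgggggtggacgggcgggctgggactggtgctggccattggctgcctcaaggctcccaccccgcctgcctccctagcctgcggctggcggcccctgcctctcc

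In the NFIL3 window shown, the RORE core, read on the opposite strand, began at -9, counted in bases from the start. The other window of NFIL3 held no match. The E-box of BHLHE40 lay at -245, near the far end of its window. NR1D2 held a D-box, read on the opposite strand, at -194 and E-boxes at -155 and -105 in the window shown, and no match in its other window. TEF had an E-box at -195 in the window shown and another at -193 before its other start. HLF held the CRE, at -7 in 1 of its windows. PER1 had an E-box at -173, and PER2 a D-box at -3. No motif was matched in the windows of DBP, NR1D1 and CLOCK, which says only that these letters are not there. All positions are counted from RefSeq starts, whereas the gene locations below are GENCODE spans with other outer ends. The matches of NFIL3, BHLHE40, NR1D2, PER1 and PER2, and that before the other start of TEF, lie inside those spans. They are thus not upstream of the whole gene as located below.

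The DMSO libraries held 18428485 to 21447045 counts each and the Rk2 libraries 16374082 to 30310479. The libraries separated by treatment on the first principal component (39.1% of the variance). There too I/R+DMSO replicate 1 lay farthest out, at -114, with the other I/R+DMSO libraries between -54.8 and -30.0. On the second (15.9%), I/R+DMSO replicate 1 stood apart at 78.7, with the other I/R+DMSO libraries between -48.6 and -41.4. Values without this library are given beside the members and, for the listed genes, at the end. Of the markers that check the label, all 9 hepatocyte genes were expressed, with ALB between 973 and 1046 and AFP between 2229 and 2526 FPKM (fragments scaled to transcript length and library depth, a level per length). Their summed FPKM was 4639 to 5130 with DMSO and 4980 to 5123 with Rk2, a sum made up mostly of AFP and ALB. Of the 9, APOB was higher with Rk2 (log2 fold change 0.61, edgeR adjusted p = 0.0124) and FGB lower (-0.27, edgeR adjusted p = 0.0462). Their part in the results below was not tested. Of 7 markers of other cells, PTPRC and VWF were listed at 0 in every library, MARCO and ACTA2 reached 0.0986 and 0.0990 FPKM, COL1A1 reached 0.684, PECAM1 lay between 1.07 and 2.10 and CD68 between 24.1 and 32.6. The summed FPKM of these 7 was 28.2 to 34.3 with DMSO and 26.5 to 34.2 with Rk2.

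NFIL3, the D-box repressor, differed most between the groups in log2 fold change among the members. The gene lies at chr9:91409045-91423862 on the minus strand (GRCh38). In CPM, read counts scaled to the library's total after TMM normalization, NFIL3 measured 45.3, 46.6, 47.2 and 45.7 in the I/R+DMSO libraries and 75.8, 73.9, 73.9 and 77.5 in the I/R+Rk2 libraries. Every Rk2 library lay above every DMSO library, and the spread within each group was small against the gap. The means were 46.2 ± 0.855 and 75.3 ± 1.71 CPM (SD, n = 4), a log2 fold change of 0.70 (SE 0.0394) or 1.63-fold. These values come from 853 to 989 reads per I/R+DMSO library and 1221 to 2314 per I/R+Rk2 library. Leaving out 1 library at a time gave 0.69 to 0.71, with 0.69 when I/R+DMSO replicate 1 was left out. Because RNA was taken from whole cultures, more cells that express a gene cannot be told apart from more RNA per cell.

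The 3 PAR bZIP activators did not share this pattern. DBP (chr19:48630030-48637438, minus strand) was the least abundant of the members. Its CPM was 1.59, 1.74, 0.937 and 1.13 in I/R+DMSO and 1.11, 1.17, 0.968 and 1.06 in I/R+Rk2. The groups overlapped, with 2 DMSO libraries above all others and 1 below all others. The log2 fold change was -0.32 (SE 0.228), and -0.24 without I/R+DMSO replicate 1. Only 16 to 37 reads per library lay behind it. Summed over each group the counts were 108 (exact Poisson 95% interval 88.6 to 130) with DMSO and 93 (75.1 to 114) with Rk2, intervals that cover counting error only and overlap, in libraries of unequal depth. The exons of DBP overlap those of SPHK2 on the opposite strand by up to 377 bases, and SPHK2 averaged 272 counts with a log2 fold change of -0.26. Whether strand was used in counting is not given in the sources used here, so reads of the pair cannot be told apart.

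TEF (chr22:41367333-41399326, plus strand) was level between the groups in CPM within its spread. The I/R+DMSO libraries gave 13.4, 15.7, 16.1 and 18.3 CPM and the I/R+Rk2 libraries 15, 15.4, 14.8 and 15.7. All 4 Rk2 values fell inside the DMSO range. The log2 fold change was -0.06 (SE 0.0928), -0.13 without I/R+DMSO replicate 1 and 0.01 without replicate 4 of the same group. After a correction for gene length it was -0.19 (SE 0.0677). The value for TEF thus depends on the libraries and the processing, and has no settled sign.

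HLF (chr17:55265012-55325065, plus strand) varied widely within groups in CPM. It measured 14.4, 10.7, 17.4 and 7.04 CPM in I/R+DMSO and 19.7, 17.6, 15.1 and 10.7 in I/R+Rk2. The highest 2 values were from Rk2 and the lowest from DMSO, but the groups overlapped over most of their range. Its log2 fold change of 0.35 had an SE of 0.293. It was 0.43 without I/R+DMSO replicate 1, 0.56 without replicate 3 of that group and 0.16 without its replicate 4.

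**Figure D1:**
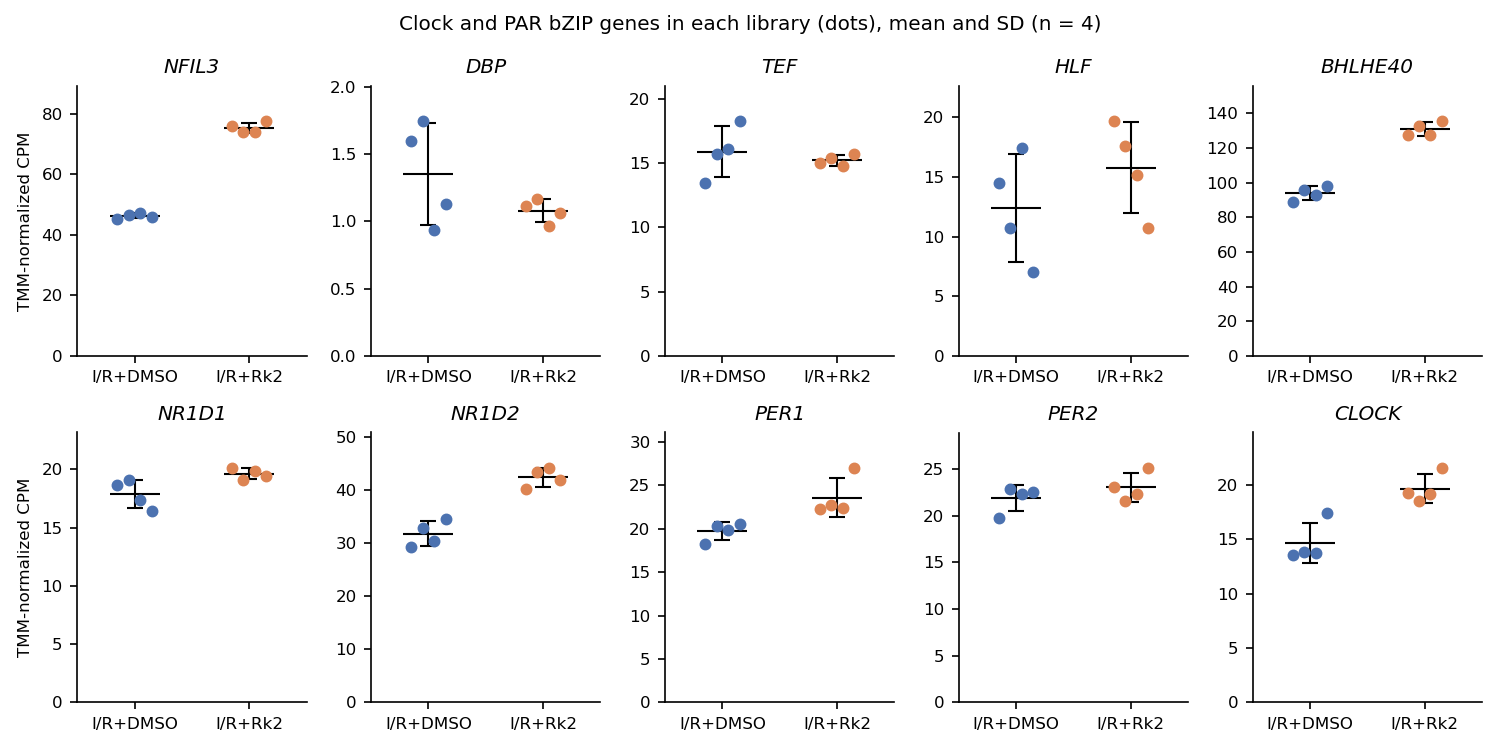
TMM-normalized CPM of the 10 genes (y axes from 0) in the 4 I/R+DMSO libraries (blue) and the 4 I/R+Rk2 libraries (orange), with dots for libraries and black lines for the mean and SD. NFIL3 goes from 46.2 to 75.3 CPM with tight groups, whereas DBP, TEF, HLF and PER2 overlap between the groups.

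The rule for these genes sets the repressor against the activators. The log2 fold change of NFIL3 exceeded that of DBP by 1.03, that of TEF by 0.77 and that of HLF by 0.35. Against the mean of the 3 activators, which was -0.01, the difference was 0.71. Leaving out 1 library at a time gave 0.66 to 0.78, and the other alternatives 0.59 to 0.76. It was 0.67 without I/R+DMSO replicate 1. The mean joins activators that went different ways, so the values against each are the better description, and this contrast is the one by which the genes were chosen.

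The same contrast was read per gene length. The FPKM of NFIL3 was 17.7, 18.6, 18.8 and 18.2 in I/R+DMSO and 30.4, 29.99, 30.1 and 31.6 in I/R+Rk2. For the summed FPKM of DBP, TEF and HLF the libraries gave 7.13, 6.75, 6.41 and 6.71 against 7.28, 8.94, 7.29 and 6.65. NFIL3 was thus the more abundant transcript in every library, and the activators' sum overlapped between the groups, at 6.75 ± 0.293 and 7.54 ± 0.982 FPKM (SD, n = 4). The ratio of NFIL3 to that sum was 2.48, 2.75, 2.93 and 2.72 in I/R+DMSO and 4.18, 3.35, 4.13 and 4.75 in I/R+Rk2, or 2.72 ± 0.184 and 4.10 ± 0.573 (SD, n = 4). All Rk2 ratios were above all DMSO ratios. Against TEF alone the ratio was 6.20 ± 0.744 in I/R+DMSO and 10.0 ± 1.04 in I/R+Rk2 (SD, n = 4), again without overlap. Against HLF alone and against DBP alone the ratios of the groups overlapped.

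The 2 deposited scales disagreed for the low activators. HLF had its lowest CPM in I/R+DMSO replicate 4 (7.04), a library in which its FPKM was 2.87, inside the range of the other I/R+DMSO libraries (2.44 to 3.12). The FPKM of DBP was 1.52, 1.34, 0.342 and 0.390 in I/R+DMSO and 1.07, 1.05, 0.360 and 0.888 in I/R+Rk2, a wider spread than that of its CPM. On log2(FPKM + 1) the difference of DBP was -0.00, and on log2(FPKM + 0.1) it was 0.07.

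**Figure D2:**
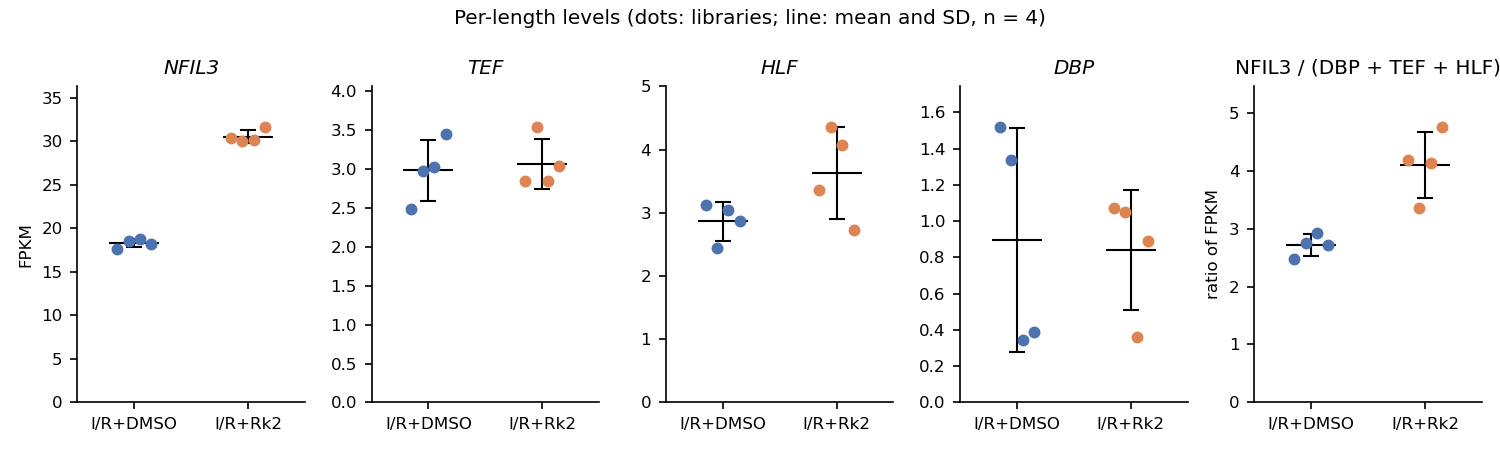
FPKM of NFIL3, TEF, HLF and DBP, and the ratio of NFIL3 to the summed FPKM of the other 3 (y axes from 0), in the I/R+DMSO (blue) and I/R+Rk2 (orange) libraries, with dots for libraries and black lines for the mean and SD. The ratio is 2.72 ± 0.184 with DMSO and 4.10 ± 0.573 with Rk2, and the groups of TEF, HLF and DBP overlap.

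BHLHE40 (DEC1), a bHLH repressor that competes at E-boxes, was the most abundant member per length. It lies at chr3:4979116-4985323 on the plus strand. Its CPM was 88.7, 95.9, 92.7 and 98.3 in I/R+DMSO and 127, 133, 127 and 135 in I/R+Rk2. The groups did not overlap. This was a log2 fold change of 0.48 (SE 0.0450), or 0.45 without I/R+DMSO replicate 1 and 0.40 after a correction for gene length.

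Of the REV-ERB receptors, NR1D2 differed by more than NR1D1 in log2 fold change. NR1D2 (chr3:23945260-23980618, plus strand) gave 29.3, 33.0, 30.5 and 34.6 CPM in I/R+DMSO and 40.3, 43.6, 44.3 and 41.9 in I/R+Rk2. No Rk2 library reached down to the DMSO range. Its log2 fold change was 0.42 (SE 0.0663), or 0.38 without I/R+DMSO replicate 1 and 0.27 after the length correction. NR1D1 (chr17:40092787-40100725, minus strand) gave 18.7, 19.1, 17.4 and 16.4 CPM in I/R+DMSO and 20.2, 19.1, 19.8 and 19.4 in I/R+Rk2. The groups came close without overlap, with a highest I/R+DMSO value of 19.08 CPM and a lowest I/R+Rk2 value of 19.13. NR1D1 had a log2 fold change of 0.13 (SE 0.0643), or 0.15 without I/R+DMSO replicate 1. Exons of NR1D1 overlap those of THRA on the opposite strand by up to 263 bases, and THRA had a log2 fold change of -0.35, so reads of this pair too cannot be told apart without strand. The difference between the log2 fold changes of the 2 receptors was not tested.

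PER1 and PER2, which encode repressors of CLOCK and ARNTL, stood on different sides of overlap in CPM. PER1 (chr17:8140472-8156506, minus strand) measured 18.3, 20.3, 19.9 and 20.6 CPM in I/R+DMSO and 22.3, 22.7, 22.3 and 27.0 in I/R+Rk2. The groups did not overlap, and I/R+Rk2 replicate 4 was well above the other 3. For PER1 the log2 fold change was 0.26 (SE 0.0802), 0.22 when I/R+DMSO replicate 1 was left out and 0.18 when I/R+Rk2 replicate 4 was left out. In FPKM the order changed: PER1 was at 7.71, 7.38, 8.44 and 6.87 in I/R+DMSO and at 6.69, 6.21, 5.90 and 11.2 in I/R+Rk2. Here 3 of the 4 Rk2 libraries then lay below all DMSO libraries and the other above, and the difference on log2(FPKM + 1) was -0.05. The direction for PER1 therefore depends on the scale. Exons of PER1 overlap those of MIR6883 by up to 78 bases and of AC129492.3 by up to 30 on the same strand.

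PER2 (chr2:238244038-238290102, minus strand) measured 19.8, 22.9, 22.4 and 22.6 CPM in I/R+DMSO and 23.1, 21.6, 22.3 and 25.1 in I/R+Rk2. The groups overlapped. For PER2 it was 0.07 on the log2 scale (SE 0.0729), 0.03 without I/R+DMSO replicate 1 and -0.12 after the length correction.

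CLOCK, the activator of the loop (chr4:55427903-55547138, minus strand), measured 13.5, 13.8, 13.7 and 17.4 CPM in I/R+DMSO and 19.2, 18.5, 19.2 and 21.6 in I/R+Rk2. The groups did not overlap, although I/R+DMSO replicate 4 came near the Rk2 libraries. The log2 fold change was 0.42 (SE 0.0978), 0.39 without I/R+DMSO replicate 1 and 0.52 without replicate 4 of the same group. CLOCK moved the most with processing among the members that did not overlap in CPM and kept their sign. After the length correction it was 0.20, and on log2(FPKM + 0.1) it was 0.69. Its FPKM groups touched, from 1.06 to 1.80 with DMSO and from 1.79 to 3.58 with Rk2. Exons of CLOCK overlap those of TMEM165 on the opposite strand by up to 76 bases, and TMEM165 averaged 1732 counts with a log2 fold change of 0.16.

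**Figure D3:**
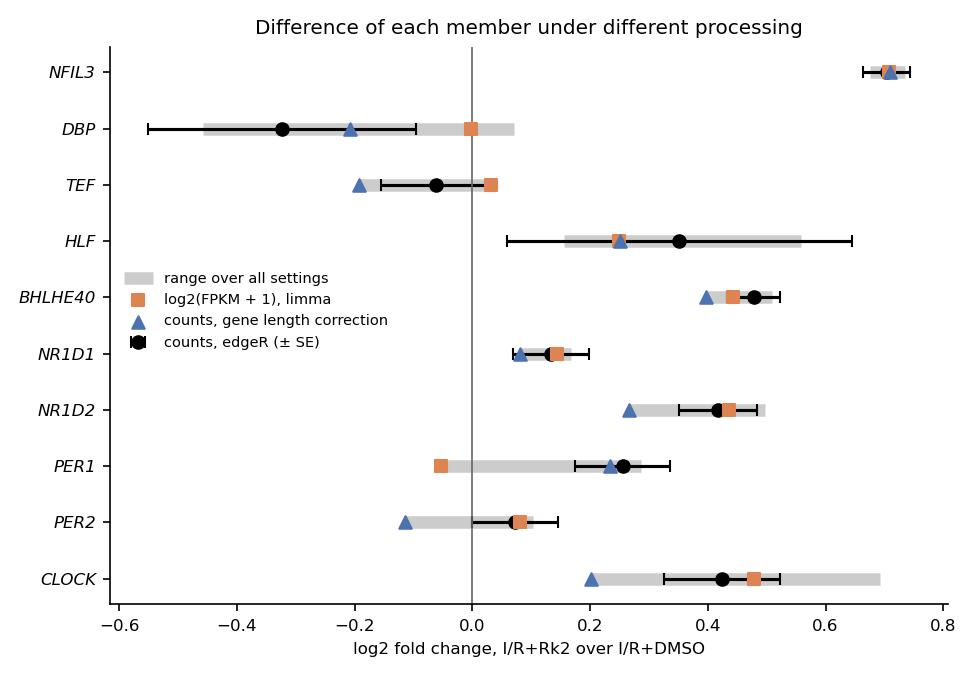
Log2 fold change (x axis, I/R+Rk2 over I/R+DMSO) of each gene from edgeR on counts (black, with SE bars), from limma on log2(FPKM + 1) (orange squares) and from counts with a gene length correction (blue triangles), with grey bars for the range over all settings, leaving out single libraries included. NFIL3 stays between 0.68 and 0.74, whereas PER1, PER2, DBP and TEF have settings on both sides of 0.

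Gene length bears on these values. Across 12898 genes, which are not independent replicates, longer genes had higher log2 fold changes (Spearman's rho 0.388). The length-corrected values take this trend out. Besides those given above, they were 0.71 for NFIL3, -0.21 for DBP, 0.25 for HLF, 0.08 for NR1D1 and 0.23 for PER1. The difference of NFIL3 from the mean of DBP, TEF and HLF was then 0.76. In the 20 alternatives NFIL3, HLF, BHLHE40, NR1D1, NR1D2 and CLOCK were above 0 each time. The sign turned in 1 of 19 alternatives for DBP, in 4 of 20 for TEF, in 3 of 20 for PER1 and in 2 of 20 for PER2.

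Over the members, 8 of 10 log2 fold changes were above 0 and their median was 0.30, beside a median of -0.002 over all 12910 tested genes. No calls of edgeR's quasi-likelihood test are given for the members. Of all tested genes 11.0% were called higher and 7.24% lower at an adjusted p below 0.05. The groups did not overlap in CPM for 6 of 10 members, NFIL3, BHLHE40, NR1D2, CLOCK, PER1 and, by a narrow gap, NR1D1. All 6 were higher, against 15.4% of all tested genes higher without overlap and 12.9% lower. Since the members were chosen on this contrast, nothing is read from these counts. Higher genes made up 60.2% of all calls, a split that became 48.8% with upper-quartile normalization, 45.1% with the length correction, 70.6% with library size only and 72.2 to 72.4% with limma on FPKM. The p-values measure the spread between these libraries, which may be technical, since the labels do not say whether samples came from separate cultures.

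The levels of the members were ordered by FPKM. In I/R+DMSO the order was BHLHE40 (23.9 ± 0.788 FPKM, SD, n = 4), NFIL3 (18.3 ± 0.480), PER1 (7.60 ± 0.658), NR1D2 (5.34 ± 0.361), NR1D1 (5.33 ± 0.345), PER2 (3.06 ± 0.201), TEF (2.99 ± 0.395), HLF (2.87 ± 0.305), CLOCK (1.51 ± 0.321) and DBP (0.897 ± 0.618). The ranges of NR1D2 and NR1D1, PER2 and TEF, TEF and HLF, and CLOCK and DBP overlapped, and the other neighbours were apart. In I/R+Rk2 the order was BHLHE40 (32.8 ± 1.02 FPKM, SD, n = 4), NFIL3 (30.5 ± 0.736), NR1D2 (7.57 ± 0.245), PER1 (7.50 ± 2.50), NR1D1 (5.98 ± 0.117), HLF (3.63 ± 0.733), PER2 (3.31 ± 0.406), TEF (3.07 ± 0.326), CLOCK (2.53 ± 0.753) and DBP (0.842 ± 0.332). There the ranges of NR1D2 and PER1, PER1 and NR1D1, HLF and PER2, PER2 and TEF, and TEF and CLOCK overlapped. BHLHE40 and NFIL3 were at the top and DBP at the bottom in both groups.

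The genes whose pattern over the 8 libraries was most like that of NFIL3 were found by the root mean square difference of centred log2 CPM, among 10460 genes with a mean of at least 5 CPM. They were SLC17A5 (0.0394 log2 units), a lysosomal sialic acid transporter, PSAT1 (0.0403), an enzyme of serine synthesis, MTHFD2 (0.0422), a mitochondrial folate enzyme, CYP51A1 (0.0439), an enzyme of cholesterol synthesis, and ARFGAP3 (0.0532). Their log2 fold changes lay between 0.63 and 0.71. For TEF the nearest were CDK12 (0.0417), TBC1D2B (0.0417), MYO5B (0.0433), PLXNA1 (0.0467) and SLC6A14 (0.0474), with log2 fold changes from -0.12 to -0.00.

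The rest of the clock was described by a list of 30 other genes, of which 26 could be tested. The list was compiled with earlier results of these data known. Of these 26, 6 rose (23.1%) and 3 fell at an adjusted p below 0.05, beside 11.0% and 7.24% of all tested genes, and their median log2 fold change was 0.11. Within it, the core loop held 12 genes with 9 tested, of which 3 rose (33.3%, beside 11.0% of all tested genes) and 1 fell (beside 7.24%), with a median of 0.43. With so few genes nothing particular to the list is read from these shares. CRY1, whose protein represses CLOCK and ARNTL with the PER proteins, rose from 48.8 ± 1.95 to 65.6 ± 4.76 CPM (SD, n = 4), a log2 fold change of 0.43 (SE 0.0616, edgeR adjusted p = 0.00378). RORA, the activator at ROREs, rose from 2.66 ± 0.624 to 4.57 ± 0.374 CPM (SD, n = 4), a log2 fold change of 0.78 (SE 0.166, edgeR adjusted p = 0.0167). After the length correction the log2 fold change of RORA was 0.50 (edgeR adjusted p = 0.144), and its mean FPKM of 0.359 was below the limma filter. Without that filter, log2(FPKM + 1) gave 0.13 for RORA (limma adjusted p = 0.478). BHLHE41 (DEC2), the close relative of BHLHE40, rose from 7.79 ± 0.824 to 10.6 ± 0.814 CPM (SD, n = 4), a log2 fold change of 0.45 (SE 0.0995, edgeR adjusted p = 0.0192). TIMELESS, known in mammals mostly for its part in DNA replication, fell by 0.29 on the log2 scale (SE 0.0521, edgeR adjusted p = 0.00887), from 143 ± 9.0 to 117 ± 3.29 CPM (SD, n = 4).

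The partners of CLOCK, ARNTL and ARNTL2, did not pass the test, and neither did NPAS2, CRY2 and PER3. ARNTL was at 1.01 ± 0.50 CPM in I/R+DMSO and 1.85 ± 0.518 in I/R+Rk2 (SD, n = 4), with overlapping groups (edgeR adjusted p = 0.123). NPAS2, which can stand in for CLOCK, had a log2 fold change of -0.06 (edgeR adjusted p = 0.605), but on log2(FPKM + 1) it was 0.60 (limma adjusted p = 0.0644), so its direction depends on the scale. CRY2 had a log2 fold change of -0.04 (edgeR adjusted p = 0.699), and 0.14 on log2(FPKM + 1). For ARNTL2 it was 0.41 (edgeR adjusted p = 0.482), and -0.09 without I/R+Rk2 replicate 4, in which ARNTL2 was at 24.6 CPM against 8.23 to 10.1 in the other Rk2 libraries. For PER3, whose reads were few, it was 0.86 with overlapping groups (edgeR adjusted p = 0.109). ARNTL and PER3 were chosen for naming after their values were seen.

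Among 18 kinases, ubiquitin ligases and cofactors of the loop, 17 were tested, 3 rose (17.6%, beside 11.0% of all tested genes) and 2 fell (beside 7.24%), and the median log2 fold change was 0.06. KLF9, a zinc finger factor, rose by 0.47 (SE 0.0798, edgeR adjusted p = 0.00707), SIRT1, a deacetylase, by 0.33 (SE 0.0574, edgeR adjusted p = 0.00805) and NAMPT, which makes the NAD that SIRT1 uses, by 0.20 (SE 0.0441, edgeR adjusted p = 0.0182). The RNA-binding proteins SFPQ and NONO, partners of the PER proteins, fell by 0.13 (edgeR adjusted p = 0.0276) and 0.14 (edgeR adjusted p = 0.0400). RACK1 had a log2 fold change of -0.18, and the casein kinases CSNK1E and CSNK1D, which phosphorylate PER proteins, of -0.09 and -0.07, and none of the 3 passed the test.

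Genes described in liver as targets of the PAR bZIP factors or NFIL3 made up a list of 12, with 9 tested. Of these 3 rose (33.3%) and 0 fell in edgeR, beside 11.0% and 7.24% of all tested genes. In the list 4 genes had an unadjusted p below 0.05. There was 1 called gene without DMSO replicate 2, DMSO replicate 3 or Rk2 replicate 1, and 2 without DMSO replicate 1. The median log2 fold change was 0.18. PDXK, pyridoxal kinase, rose from 121 ± 7.93 to 144 ± 3.65 CPM (SD, n = 4), a log2 fold change of 0.25 (edgeR adjusted p = 0.0152). POR, the reductase that serves the cytochromes P450, rose by 0.18 (edgeR adjusted p = 0.0218). CYP2B6, a cytochrome P450 of drug metabolism, rose by 0.54 (edgeR adjusted p = 0.0485), from 8.59 ± 1.64 to 12.5 ± 1.64 CPM (SD, n = 4). ALAS1, the first enzyme of heme synthesis, stood at 212 ± 8.98 and 215 ± 2.79 CPM (SD, n = 4), CES1 had a log2 fold change of -0.10 and ABCB1 of 0.23, and none of these passed the test. CYP2A6 and CYP2C8 had at most 3 and 9 reads in an I/R+Rk2 library, and CYP7A1, the rate-limiting enzyme of bile acid synthesis, was listed at 0 FPKM.

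**Figure D4:**
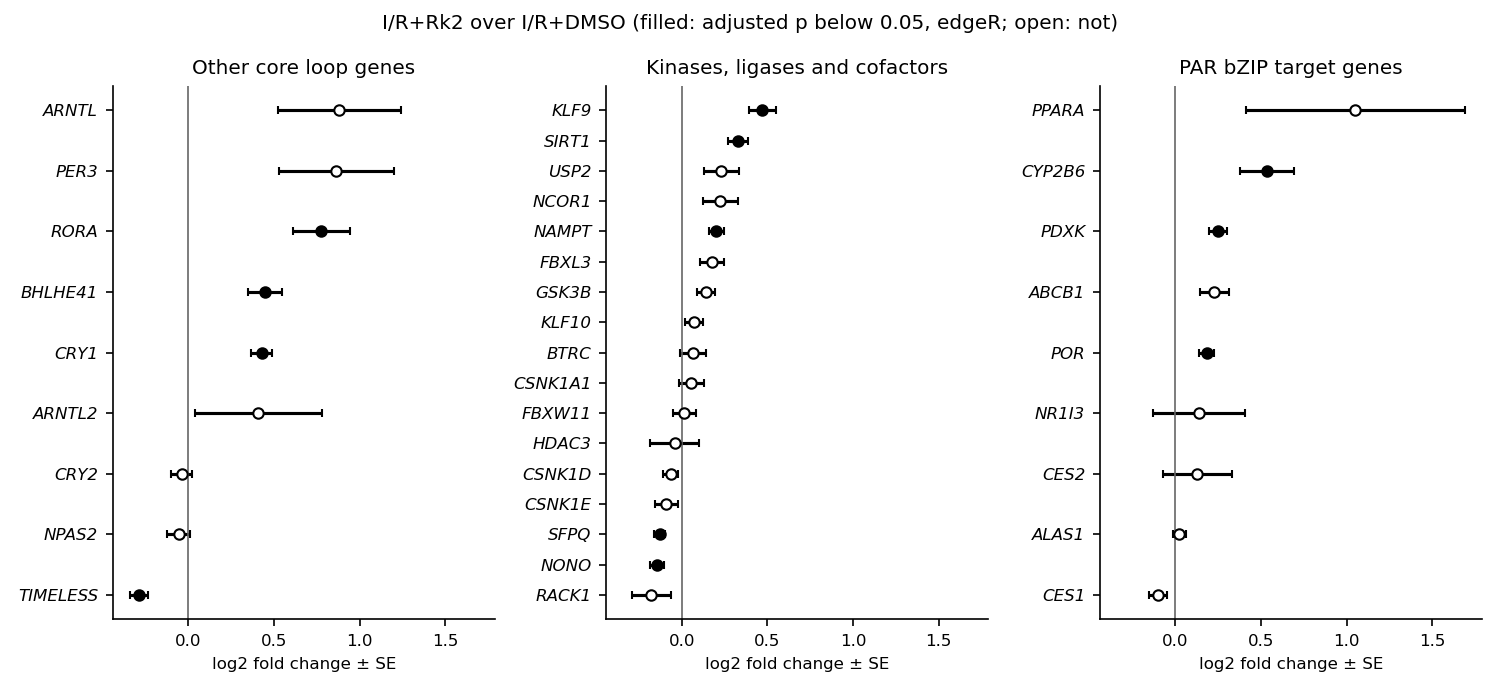
Log2 fold change with SE (x axis) of the tested genes of the core loop, of its kinases, ligases and cofactors, and of the PAR bZIP target list, with filled circles for an adjusted p below 0.05 in edgeR and open circles for the rest. CRY1, RORA and BHLHE41 lie right of 0 and TIMELESS left of it, and the 3 called target genes lie right of 0.

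CRY1 and TIMELESS passed the threshold in all 20 alternatives. The other calls were less steady: KLF9 passed in 19, SIRT1 in 17, PDXK in 15, POR in 14, NAMPT in 13, BHLHE41 in 12, SFPQ and CYP2B6 in 9 and NONO in 7 of 20, and RORA in 14 of the 17 that tested it. Leaving out a library ended the call of BHLHE41 (edgeR adjusted p = 0.051 to 0.054 without I/R+Rk2 replicate 1, 2 or 4), of NAMPT (0.052 without I/R+DMSO replicate 2, 0.053 without replicate 4 of the Rk2 group) and of POR (0.052 to 0.055 without I/R+DMSO replicate 2 or 3 or the Rk2 replicate 1). The calls of SFPQ (edgeR adjusted p = 0.060 to 0.083), NONO (0.057 to 0.103) and CYP2B6 (0.055 to 0.112) were lost without most of the libraries. These were SFPQ without DMSO replicate 2 or 3 or Rk2 replicate 1, 2 or 3, NONO without any library but DMSO replicate 4 and Rk2 replicate 1, and CYP2B6 without any but Rk2 replicate 4. Without I/R+DMSO replicate 1, the library that stood apart, the log2 fold change was 0.41 for CRY1, 0.95 for RORA, 0.43 for BHLHE41, -0.33 for TIMELESS, 0.47 for KLF9, 0.29 for SIRT1 and 0.21 for NAMPT. It was then -0.13 for SFPQ, -0.13 for NONO, 0.21 for PDXK, 0.20 for POR and 0.60 for CYP2B6, and the calls of NONO and CYP2B6 were lost. On log2(FPKM + 1) PDXK was far from the threshold (limma adjusted p = 0.769). Exons of several of these genes overlap others on the opposite strand, among them BHLHE41 with SSPN by up to 162 bases and POR with TMEM120A by up to 19. Samples were taken at 1 time of reoxygenation, so the phase of the clock was not measured.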

How the data were processed

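RNA-seq libraries were made by the authors from 250 ng of total RNA with the MGIEasy kit. The submitters' processing notes name FastQC 0.11.5, HISAT2 2.2.1, StringTie 1.3.3 and hg38, and the counting tool, its strand setting and the annotation are not given in the sources used here. The authors deposited raw counts per gene (15767 rows) and FPKM (19799 rows), normalized for length and depth. Of the count rows, 22 whose symbols had turned into dates (0.111% of counts) were left out.

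The members and gene lists were chosen with earlier results of these data known. Groups followed the labels. Counts were tested with edgeR 4.0.16 in R 4.3.3 (robust quasi-likelihood, TMM, at least 10 counts in at least 4 libraries, group only, Benjamini-Hochberg over 12910 genes, adjusted p below 0.05). The SE of an edgeR log2 fold change was its absolute value divided by the square root of the test's F statistic. CPM used TMM-scaled library sizes. Alternatives were DESeq2 1.42.0, other scalings and filters, limma 3.58.1 on log2(FPKM + 1) or log2(FPKM + 0.1) with or without a mean FPKM of at least 0.5, voom with sample weights, a length correction (loess, span 0.5, length derived from counts and FPKM), a replicate block, and leaving out each library. Named genes were all members, the called genes of each list (up to 6 in each direction) with the 3 most abundant uncalled ones, and the 5 nearest to NFIL3 and to TEF. Locations and exon overlaps came from GENCODE v29.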

Additional observations from a re-analysis of the deposited data

Results flagged for a closer look

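Both groups of each member, and of each listed gene named by the rule given above, were examined, and the other listed genes were not. In 6 of these 62 groups of 4 libraries, 1 library lay apart from the other 3. About 1 in 20 groups, or 3.1, would have such a library by chance. The gap to the nearest library, as a share of the group's range, was compared with Dixon's 95% critical value. PER1 was highest in I/R+Rk2 replicate 4, at 27.0 CPM against 22.3 to 22.7 (share 0.922). ARNTL2 was highest in the same library, at 24.6 against 8.23 to 10.1 CPM (0.888). CLOCK was highest in I/R+DMSO replicate 4, at 17.4 against 13.5 to 13.8 CPM (0.908), and RACK1 was lowest there, at 636 against 801 to 833 CPM (0.839). PER2 was lowest in I/R+DMSO replicate 1, at 19.8 against 22.4 to 22.9 CPM (0.834). CSNK1D was highest in I/R+Rk2 replicate 3, at 151 against 138 to 140 CPM (0.833).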

How the results depend on the processing

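Each result was recomputed under up to 20 alternatives. With limma on log2(FPKM + 1), on log2(FPKM + 0.1) and without its filter, 818, 809 and 725 genes were higher and 315, 311 and 276 lower, 3 genes of the wider clock list and 1 target gene passed, and the log2 fold changes of NPAS2 (0.60, 0.62 and 0.60), CRY2 (0.14, 0.16 and 0.14) and CSNK1D (0.0535, 0.0545 and 0.0535) changed sign. The cause was not tested. The length correction with the replicate block gave 703 higher genes, 3 clock genes and 1 target gene. ALAS1 turned to -0.0053 with upper-quartile normalization. Leaving out 1 library at a time gave 863 (without I/R+Rk2 replicate 4) to 1418 higher genes, 430 (without I/R+Rk2 replicate 4) to 885 lower genes (591 and 573 without DMSO replicates 2 and 3, 622, 517 and 533 without Rk2 replicates 1, 2 and 3), 6 to 11 clock genes and 1 to 3 target genes, the lowest without DMSO replicate 2 or 3 or Rk2 replicate 1. It gave log2 fold changes of -0.0739 to 0.0031 for CRY2, -0.0884 (without I/R+Rk2 replicate 4) to 0.59 for ARNTL2 and -0.0047 to 0.0436 for ALAS1. Deviations from the group mean correlated at -0.0095 to 0.085 between same-numbered libraries and at -0.148 to 0.0769 between the others. These values cannot show whether replicate numbers paired the samples. The replicate block alone gave 1143 higher and 672 lower genes, 7 clock genes and 2 target genes. With it the log2 fold change of HLF was 0.39 (SE 0.169, against 0.293 without the block). Depth limits DBP most, with 16 to 37 reads per library.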
